A study of Homo sapiens with 6 samples.

Results

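The suprabasal and mucosal keratins are the keratin genes of the differentiated layers of skin and of the lining of the mouth. They were taken by gene symbol as KRT1, KRT10, KRT2, KRT4, KRT13, KRT23, KRT75, KRT78 and KRT80, 9 of the 38167 genes in the count table, and all 9 were found. They were compared between spheroids of Cal27, an established human tongue squamous carcinoma line, grown in stiff Matrigel (12 mg/mL) and the same line grown in soft Matrigel (3 mg/mL). Matrigel is a gel of extracted basement membrane proteins; the spheroids were made by liquid overlay and collected on day 14 in both conditions, with 3 RNA sequencing libraries in each. The labels name no other cell type, and the Matrigel concentration changes stiffness and matrix ligand together, so these cannot be told apart.

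Keratins are the intermediate filament proteins of epithelia. Each filament pairs a type II keratin, whose genes lie on chromosome 12, with a type I keratin, whose genes lie on chromosome 17 apart from KRT18. Basal cells of stratified epithelia make KRT5 and KRT14; as cells leave the basal layer, epidermis turns to KRT1 and KRT10, and the soft lining of the mouth and oesophagus, including parts of the tongue, turns to KRT4 and KRT13.

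The libraries held 35292340 to 36594685 counted fragments in stiff and 30656278 to 40583044 in soft. Squamous markers were abundant: TP63, KRT5, KRT14, KRT6A, KRT17, SFN, DSG3, PKP1, PERP and CDH1 summed to between 21137 and 22671 CPM, counts scaled to the size of the library, in stiff and 7011 to 7690 CPM in soft. Of these 10, all tested, 8 were higher in stiff, CDH1 was 1.36-fold lower and DSG3 did not pass. Stiff replicate 2 stood apart from the other stiff libraries on the second principal component (-35 against 21.5 and 18.3), so results that change without it are given both ways. Among markers of other cells, 7 fibroblast markers summed to between 107 and 113 CPM in stiff and 78.5 to 85.1 CPM in soft, with 3 of 5 tested higher and 0 lower. LUM, which encodes lumican, averaged 17.3 CPM in stiff and 2.31 CPM in soft (7.55-fold higher), ACTA2 rose 1.57-fold and COL1A1, the most abundant, averaged 82.6 CPM in stiff and 71.8 CPM in soft (1.15-fold higher), while DCN and COL3A1 were below the count filter. Endothelial markers summed to between 3.81 and 5.07 CPM in stiff and 11.0 to 14.0 CPM in soft, with 1 of 3 tested higher and 1 lower. The lower sum in stiff was that of CDH5, at 0.552 CPM in stiff and 10.4 CPM in soft (18.7-fold lower), whereas VWF rose 2.03-fold, with 3.22 CPM in stiff and 1.58 CPM in soft. Leukocyte markers summed to between 132 and 147 CPM in stiff and 104 to 112 CPM in soft, with CD68 the most abundant, while PTPRC, which marks leukocytes, had at most 0.04 CPM on average in either condition. Of these 5 markers, 4 were tested, 2 were higher and 1 was lower. Melanocyte markers summed to between 4.05 and 5.51 CPM in stiff and 2.38 to 3.14 CPM in soft, with 1 of 2 tested higher, 0 lower and TYR at 0 in all libraries. Markers of simple and glandular epithelium summed to between 336 and 404 CPM in stiff and 324 to 346 CPM in soft, with 2 of 6 tested higher and 3 lower. Hair follicle markers summed to between 7.51 and 9.12 CPM in stiff and 9.07 to 9.80 CPM in soft, with 3 of 4 tested higher and 1 lower. For comparison, 25.3% of all genes tested were higher in stiff and 23.8% were lower. The part of these markers in the keratin results was not tested.

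Of the 9 keratins, 3 rose in stiff Matrigel (KRT1, KRT10 and KRT75), 1 fell (KRT80) and 5 did not pass (KRT2, KRT4, KRT13, KRT23 and KRT78). All 9 passed the count filter. The test was edgeR's quasi-likelihood test on the counts of all genes, with adjusted p below 0.05 as the threshold; of 18676 genes tested, 25.3% were higher, 23.8% were lower and 49.1% were called in either direction, so the share of these keratins called (44.4%) was near that of all genes. The 3 stiff and 3 soft CPM values did not overlap in 6 of the 9 keratins, against 59.9% of all genes. Stiff was above soft in 4 of them, against 30.3% of all genes, and below in 2, against 29.6% of all genes. The median log2 fold change of the 9 was 0.23, against -0.00017 over all genes tested. In bulk RNA, a change in the number of cells that make a keratin and a change in its RNA per cell cannot be told apart.

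**Figure D1:**
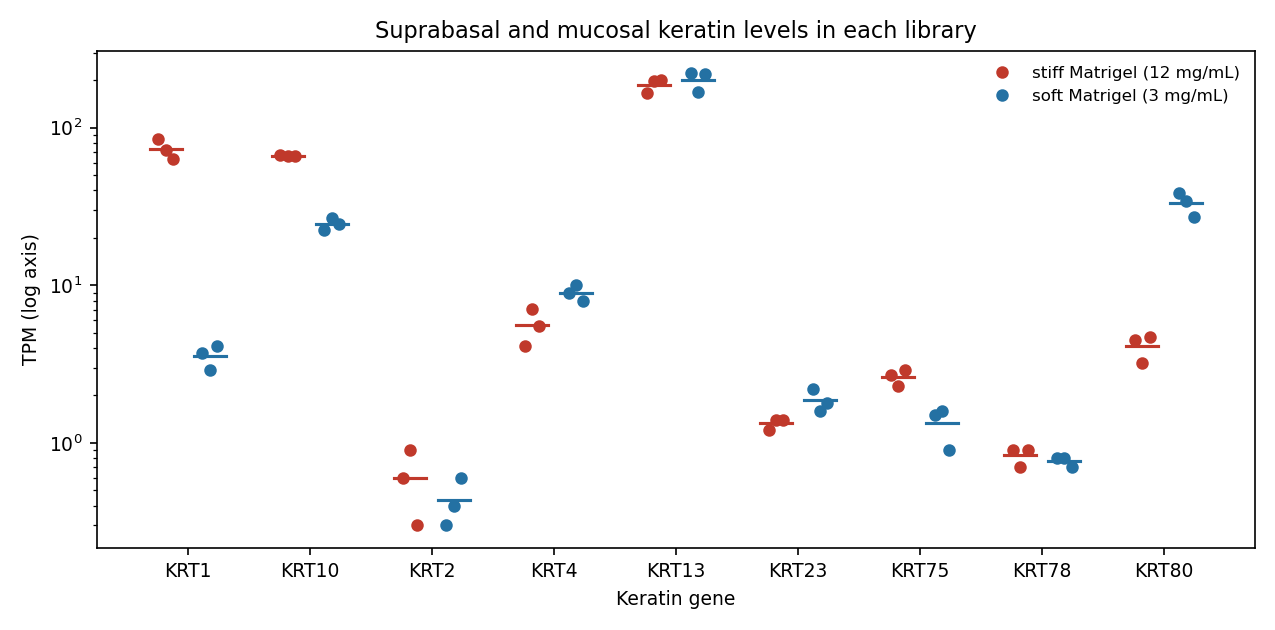
Level of each keratin in TPM on a log axis, 1 point per library and a line at the mean, with stiff Matrigel in red to the left of soft Matrigel in blue. KRT1 averaged 73.2 TPM in stiff and 3.57 TPM in soft, KRT80 averaged 4.13 TPM in stiff and 33.3 TPM in soft, and KRT13 overlapped between conditions.

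RefSeq's table of GRCh38.p14 held promoters, from 250 bases before to 50 after the start of the gene, for 4 of the 9 keratins (KRT10, KRT2, KRT4 and KRT75). The promoters of KRT10 and KRT75, which both rose, and of KRT4, which did not pass, are shown 5′ to 3′ on the strand of the gene, with capitals marking matches to TATAA, the core of the TATA box, and to CCAAT, on either strand.
KRT10, chr17:40822565-40822864, minus strand: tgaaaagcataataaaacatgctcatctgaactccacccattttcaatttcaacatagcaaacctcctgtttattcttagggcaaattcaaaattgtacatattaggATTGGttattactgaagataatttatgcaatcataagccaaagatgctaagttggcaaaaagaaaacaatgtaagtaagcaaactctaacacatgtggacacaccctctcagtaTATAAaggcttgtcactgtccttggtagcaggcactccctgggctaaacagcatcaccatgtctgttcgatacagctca
KRT75, chr12:52434322-52434621, minus strand: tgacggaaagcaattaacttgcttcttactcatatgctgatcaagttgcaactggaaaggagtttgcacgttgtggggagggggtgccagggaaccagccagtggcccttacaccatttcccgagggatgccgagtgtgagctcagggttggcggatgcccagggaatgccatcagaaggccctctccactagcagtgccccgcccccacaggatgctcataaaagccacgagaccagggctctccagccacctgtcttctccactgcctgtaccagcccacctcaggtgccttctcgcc
KRT4, chr12:52814067-52814366, minus strand: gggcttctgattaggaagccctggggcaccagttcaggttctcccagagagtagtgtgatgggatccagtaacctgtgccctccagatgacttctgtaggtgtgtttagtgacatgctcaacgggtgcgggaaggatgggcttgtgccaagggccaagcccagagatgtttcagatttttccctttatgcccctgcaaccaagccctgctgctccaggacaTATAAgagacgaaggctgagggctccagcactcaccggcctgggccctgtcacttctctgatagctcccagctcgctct

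Positions are counted from the RefSeq start, which differs from the end of the GENCODE span given for each gene; the KRT4 promoter shown lies wholly inside that span. TATAA was found at position -29 from the RefSeq start in both KRT10 and KRT4 and in none of the 300 bases of KRT75. Only exact matches were counted, so variants of the TATA box were not. CCAAT was found in KRT10 only among these 3, on the opposite strand and beginning at position -143. Another motif, TGANTCA, bound by AP-1 factors, was in none of the 3. Of 35116 promoters of this length, 20.4% held TATAA, 34.6% held CCAAT and 7.71% held TGANTCA on either strand. KRT10, which rose, and KRT4, which did not pass, thus share a TATAA match at the same position, and KRT75, which rose, has none. The promoter of KRT2, which did not pass and is not shown, held TATAA at positions -74 and -28, without CCAAT or TGANTCA.

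KRT1 and KRT10 are the type II and type I partners of the spinous layer of the epidermis, and both rose, KRT1 far more than KRT10. KRT1 (Entrez 3848, chromosome 12, 52674736 to 52680407 in GRCh38, 9 exons) had 1747, 1712 and 1361 fragments in the stiff libraries, against 85, 58 and 74 in the soft libraries. Its level was 84.2, 72.4 and 62.9 TPM in stiff and 3.7, 2.9 and 4.1 TPM in soft (TPM, transcript abundance that the authors scaled for gene length and depth). The lowest stiff library lay above every soft library (the lowest stiff TPM was 15.3 times the highest soft TPM). The log2 fold change was 4.48 ± 0.16 (SE), or 22.3-fold with a 95% interval of 17.5 to 28.4, and the adjusted p was 5.46e-08. Only 9 of the 18676 genes tested had a larger positive fold change.

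KRT10 (Entrez 3858, chromosome 17, 40818117 to 40822595, 8 exons) had 67.4, 66.4 and 65.7 TPM in the stiff libraries and 22.4, 26.9 and 24.4 TPM in the soft libraries. The conditions did not overlap, and the stiff values lay within a narrow range. In CPM, KRT10 averaged 72.6 ± 4.24 in stiff and 24.9 ± 3.06 in soft (SD, n = 3 each). It rose 2.92-fold (95% interval 2.51 to 3.40, adjusted p = 1.49e-06), a rise that 611 other genes exceeded. KRT10-AS1, a noncoding gene that overlaps KRT10 on the opposite strand, averaged 9.95 ± 0.981 CPM in stiff and 8.70 ± 1.06 CPM in soft (SD, n = 3 each, adjusted p = 0.226). It shares 56 bases, 2.6%, of the exons of KRT10 in GENCODE release 29, where it is named TMEM99.

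The balance between these partners therefore differed between conditions. The TPM of KRT1 over that of KRT10 was 1.25, 1.09 and 0.957 in the stiff libraries and 0.165, 0.108 and 0.168 in the soft libraries. In the authors' TPM, KRT1 was thus about level with KRT10 in stiff, and lower in every soft library. The level in stiff depends on the gene lengths used. The mean log2 ratio in stiff was 0.128 in TPM and -0.686 on counts. The merged GENCODE exons of KRT1 (2488 bases) are longer than those of KRT10 (2144 bases), so by those lengths KRT1 lay below KRT10 in stiff. The lengths behind the TPM were not tested, and equal abundance is not established. On counts, the log2 ratio was 2.93 higher in stiff, or 7.60-fold, with SDs of 0.19 in stiff and 0.37 in soft. A two-sided exact permutation test gave p = 0.1, the smallest that 3 against 3 libraries allow. Leaving out any library kept the difference between 2.71 and 3.04.

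**Figure D2:**
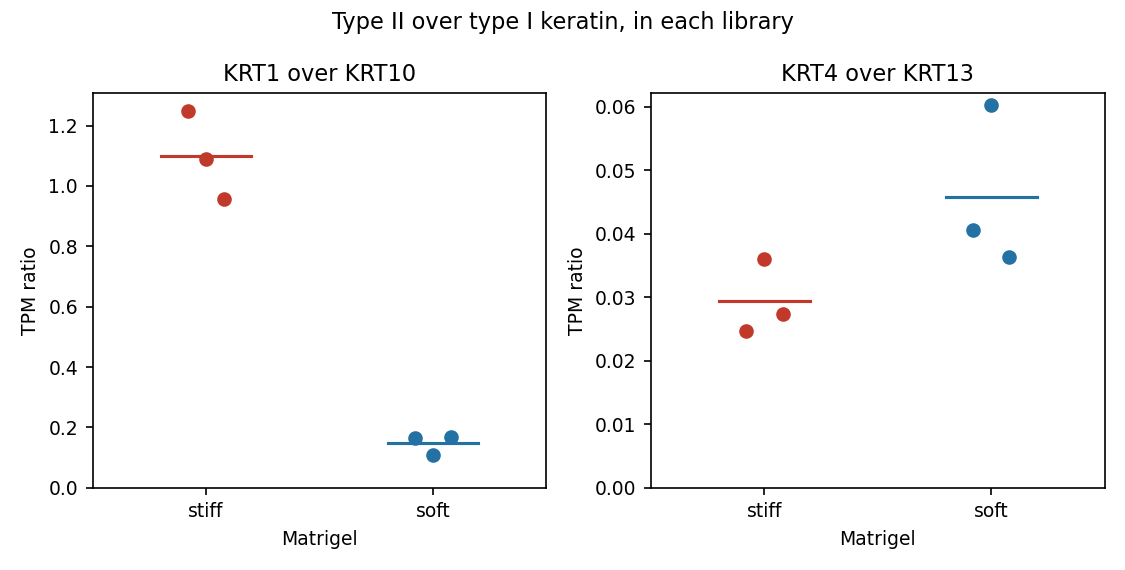
Ratio of TPM of the type II keratin to its type I partner, 1 point per library and a line at the mean, with stiff Matrigel to the left of soft. KRT1 over KRT10 lies between 0.957 and 1.25 in stiff and between 0.108 and 0.168 in soft; KRT4 over KRT13 lies between 0.0247 and 0.0360 in stiff and between 0.0363 and 0.0603 in soft.

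KRT2, the type II keratin of the uppermost living layers of the epidermis, was near the limit of detection. It had 13, 22 and 7 fragments in the stiff libraries and 8, 8 and 10 in the soft libraries, and the values overlapped. Its fold change of 1.604 had a 95% interval of 0.763 to 3.37 (adjusted p = 0.265), which spans lower and higher levels in stiff. KRT2 is the neighbour of KRT1 on chromosome 12.

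KRT4 and KRT13 are the suprabasal pair of the soft mucosa, and neither passed the test. KRT13 (Entrez 3860, chromosome 17, 41500981 to 41505705) was the most abundant of the 9 in both conditions, with 165.8, 197.4 and 200.9 TPM in stiff and 221.4, 167.5 and 217.8 TPM in soft. The values overlapped, the fold change was 1.01 with a 95% interval of 0.844 to 1.21 (adjusted p = 0.930), and its sign turned with library-size scaling, with limma on TPM and with some libraries left out. An antisense transcript in GENCODE release 29 covers 16.3% of the exons of KRT13, so part of its count could belong to that transcript.

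KRT4 (Entrez 3851, chromosome 12, 52806549 to 52814551) had 74, 147 and 104 fragments in the stiff libraries and 181, 177 and 125 in the soft libraries. Its level was 4.1, 7.1 and 5.5 TPM in stiff and 9.0, 10.1 and 7.9 TPM in soft. In TPM every stiff library was below every soft library, whereas in CPM stiff replicate 2 (4.12) lay just above soft replicate 3 (4.02). The fold change, stiff over soft, was 0.675 with a 95% interval of 0.478 to 0.953; the unadjusted p was 0.0294 and the adjusted p 0.0580. Without stiff replicate 2 KRT4 was 1.79-fold lower in stiff and past the threshold (adjusted p = 0.000602). Over all alternatives the adjusted p ran between 0.000602 and 0.181, and 7 of 16 called KRT4 lower.

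KRT4 was scarce beside KRT13. Its TPM over that of KRT13 was 0.0247, 0.0360 and 0.0274 in stiff and 0.0407, 0.0603 and 0.0363 in soft, so the highest stiff library lay just below the lowest soft library. On counts, the log2 ratio differed by -0.62, or 0.649-fold (two-sided exact permutation p = 0.1, the smallest possible), with SDs of 0.28 in stiff and 0.38 in soft. Leaving out a library moved the difference to between -0.78 and -0.41.

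KRT80 (Entrez 144501, chromosome 12, 52168996 to 52192000), a type II keratin tied to late keratinocyte differentiation, was the member that fell. It had 446, 360 and 489 fragments in the stiff libraries and 4221, 3312 and 2356 in the soft libraries. These correspond to 4.5, 3.2 and 4.7 TPM in stiff and 38.3, 34.3 and 27.2 TPM in soft, with no overlap. The log2 fold change was -2.91 ± 0.14 (SE), a level in stiff of 0.133 of that in soft (95% interval 0.107 to 0.166, adjusted p = 3.84e-07). Only 75 genes had a more negative fold change. LINC00592, a noncoding gene that spans KRT80 on the opposite strand without sharing exon bases, averaged 0.397 ± 0.122 CPM in stiff and 0.265 ± 0.0534 CPM in soft (SD, n = 3 each, adjusted p = 0.247).

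KRT75, the type II keratin of the companion layer of the hair follicle, rose at a low level. It had 50, 49 and 56 fragments in the stiff libraries and 31, 29 and 14 in the soft libraries, or 2.7, 2.3 and 2.9 TPM in stiff and 1.5, 1.6 and 0.9 TPM in soft. The conditions did not overlap; soft replicate 3 was the lowest. The rise was 2.11-fold (95% interval 1.40 to 3.20, adjusted p = 0.00755). KRT75 lies beside the KRT6 genes, of which KRT6A rose 3.86-fold to 1737 CPM, but none of its 61-base stretches, the read length, was found in another keratin. An antisense transcript covers 9.5% of its exons.

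KRT23, a type I keratin, and KRT78, a type II keratin, did not pass. KRT23 had 65, 88 and 83 fragments in stiff and 137, 86 and 89 in soft. Its CPM was below soft in every stiff library, and the fold change, stiff over soft, was 0.765 (95% interval 0.576 to 1.02, adjusted p = 0.107). KRT78 had 55, 49 and 55 fragments in stiff and 53, 46 and 37 in soft. Its CPM was above soft in every stiff library, and the fold change was 1.18 (95% interval 0.861 to 1.61, adjusted p = 0.361). For these, separate ranges did not amount to a call.

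**Figure D3:**
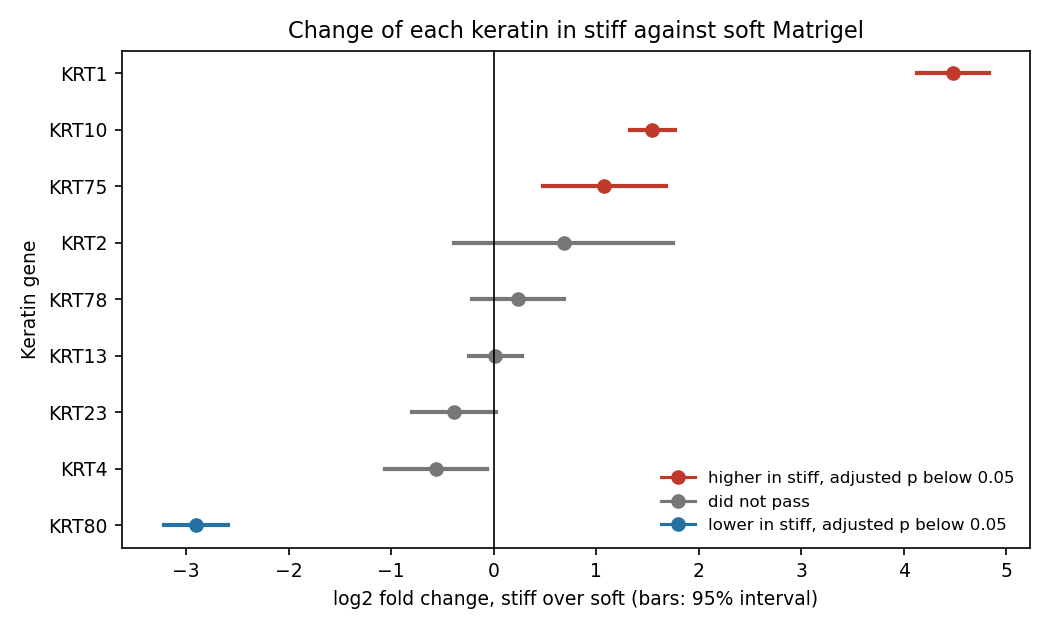
Log2 fold change of each keratin, stiff over soft, from edgeR with its 95% interval, in red where higher, blue where lower and grey where the adjusted p did not pass. KRT1 stands at 4.48, KRT10 at 1.55 and KRT75 at 1.08, KRT80 at -2.91, and the 5 others lie between -0.57 and 0.68.

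The order of the levels, compared per length in TPM, changed between the conditions. In stiff, KRT13 led with a mean of 188 TPM, then KRT1 (73.2) and KRT10 (66.5), whose ranges overlapped, then KRT4 (5.57) and KRT80 (4.13), which also overlapped. KRT75 (2.63), KRT23 (1.33), KRT78 (0.833) and KRT2 (0.600) followed, the last pair overlapping. In soft, KRT13 led with 202 TPM, then KRT80 (33.3), KRT10 (24.6), KRT4 (9.0) and KRT1 (3.57), with no overlap between neighbours. KRT23 (1.87) and KRT75 (1.33) overlapped, and KRT78 (0.767) and KRT2 (0.433) were last. In TPM, KRT1 stood at place 2 in stiff and place 5 in soft, and KRT80 at place 5 in stiff and place 2 in soft. CPM is not scaled for length, and some of these places differ in it. In stiff CPM, KRT10 (72.6) stood above KRT1 (45.5), and KRT80 (12.2) above KRT4 (3.05). In soft CPM, KRT23 (2.89) stood above KRT1 (2.04), while KRT80 (91.5) stayed above KRT10 (24.9). Merged GENCODE exons span 4350 bases in KRT80, 3312 in KRT4, 2902 in KRT23, 2488 in KRT1 and 2144 in KRT10. Scaling the mean CPM by those lengths would keep the CPM order of each of these pairs. The places in TPM thus depend on the lengths behind the TPM, which were not tested.

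Summed over the 9 genes, the level was 331 to 352 TPM in stiff and 246 to 300 TPM in soft. KRT1 and KRT10 together made up 37.3% to 45.7% of that sum in stiff and 8.71% to 12.1% in soft. KRT13 made up 50.03% to 58.2% in stiff and 68.1% to 76.3% in soft, and KRT80 made up 0.910% to 1.36% in stiff and 9.53% to 13.9% in soft. Shares of summed TPM depend on the gene lengths behind the TPM, which were not tested. Against all 55 keratin genes of the table, which summed to between 42942 and 45490 TPM in stiff and 14312 to 15644 TPM in soft, the 9 were a smaller share in stiff, 0.729% to 0.819%, than in soft, 1.72% to 2.06%. The basal and wound-associated keratins held most of that pool. KRT5, KRT17 and KRT14, the other keratins with the highest mean CPM over the 6 libraries, averaged 11473, 10956 and 12446 TPM in stiff and 3757, 5174 and 2144 TPM in soft. KRT15, the next by that mean, went the other way, with 1651 CPM in stiff and 2718 CPM in soft. In soft it had the highest mean CPM of all keratins.

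Of the 46 other keratin genes, 30 were tested, 20 were higher in stiff, 5 were lower and 5 did not pass. Over all genes tested, 25.3% were higher and 23.8% were lower. The median log2 fold change of the 30 keratins was 1.19. Without stiff replicate 2, 18 of the other keratins were higher and 5 were lower. Over all genes that fit called 5379 of 19053 higher and 5224 lower, more than with all 6 libraries. The falls had a pattern by position that was noticed after the values were seen. Along chromosome 12, KRT80 is the first keratin gene of the type II cluster, and the next 3, KRT7, KRT86 and KRT81, fell with it, by 9.22-fold, 4.08-fold and 2.85-fold (adjusted p = 1.75e-06, 7.12e-05 and 0.000524). KRT7, a keratin of simple epithelia, averaged 1.76 CPM in stiff and 16.3 CPM in soft. KRT83 and KRT85 follow and were below the count filter. Beyond them 14 of the 18 tested genes of the cluster rose, 0 fell and 4 did not pass (KRT2, KRT4, KRT78 and KRT18). KRT86 and KRT81 are similar in sequence and their spans overlap on opposite strands, so the split of fragments between them is uncertain. The span of KRT86 also overlaps that of KRT7 on the same strand. Both were low: KRT86 averaged 0.878 CPM in stiff and 3.58 CPM in soft, and KRT81 averaged 0.779 CPM in stiff and 2.23 CPM in soft. Next to KRT1, KRT77 and KRT76, both low, rose 1.82-fold and 5.25-fold. In the type I cluster 9 of 17 tested genes rose, KRT10 among them, and KRT222 and KRT15 fell; KRT13 lies next to KRT15, which fell 1.65-fold.

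**Figure D4:**
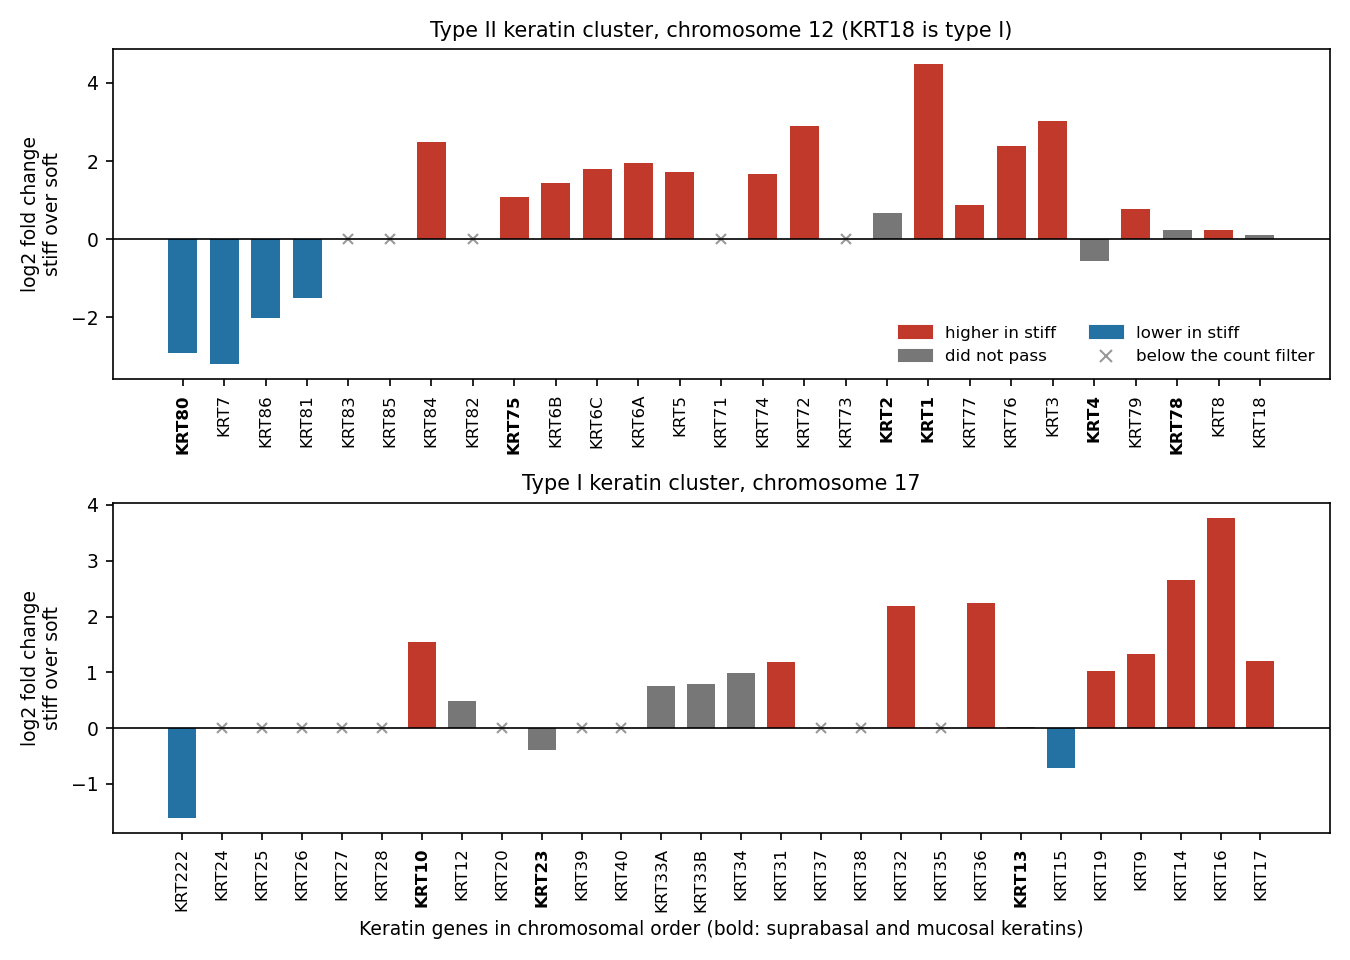
Log2 fold change, stiff over soft, of every keratin gene in chromosomal order along the type II cluster on chromosome 12 and the type I cluster on chromosome 17, with the suprabasal and mucosal keratins in bold and a cross for genes below the count filter. KRT80, KRT7, KRT86 and KRT81, in blue at the start of the upper panel, are the 4 genes of that cluster that fell.

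Reads shared between keratins touched these 9 genes little at the length of the reads. Of the 61-base stretches of KRT1, KRT10, KRT2, KRT4 and KRT78 transcripts in GENCODE release 29, 0 occurred in the transcripts of another gene, on either strand. For KRT80 the share was 0.11%, found in KRT8 and its pseudogene KRT8P3, and for KRT13 0.20% was found in KRT15. Antisense transcripts held 11.7% of the stretches of KRT13, 7.33% of those of KRT75 and 2.37% of those of KRT23. Stretches that differ by a few bases were not counted.

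Genes whose pattern over the 6 libraries was most like that of each keratin above 5 CPM were found among genes at that level, by the root mean square difference of log2 CPM centred on each gene's mean. For KRT1 they were LOC105371553 (0.21), KRT16, a wound-activated keratin (0.36), and the carbonic anhydrase CA12 (0.57). For KRT10 they were ADIRF-AS1, SERPINA1 and C12orf75 (0.07 each). For KRT13, which did not pass, they were TRIM23 (0.07), DHRS11 (0.07) and LAMTOR3 (0.08). For KRT80 they were SLC25A25-AS1 (0.13), the cystine transporter SLC7A11 (0.14) and the transaminase GPT2 (0.15). KRT1 had no gene as close as the other keratins had. The measure depends on the size of the change, and only 9 genes had a larger positive fold change than KRT1. Few genes could therefore lie near KRT1, and its distances do not show a distinct pattern. KRT16, the keratin nearest to KRT1, rose 13.6-fold to 1610 ± 198 CPM in stiff, against 118 ± 8.11 CPM in soft (SD, n = 3 each).

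Of 18 other genes of differentiating epidermis in the table, 13 were tested, 8 rose, 0 fell and 5 did not pass. Among all genes tested, 25.3% rose and 23.8% fell. The median log2 fold change of the 13 was 0.60. CASP14, the caspase of cornifying cells, rose 7.51-fold to 16.7 CPM and HOPX, a homeodomain protein of differentiating keratinocytes, rose 16.4-fold to 3.63 CPM. IVL, the envelope precursor involucrin, was at 1.05 CPM in stiff and 1.51 CPM in soft (adjusted p = 0.115). FLG, which encodes filaggrin, was at 1.66 CPM in stiff and 1.28 CPM in soft (adjusted p = 0.378). LORICRIN, FLG2, DSG1 and DSC1 were below the count filter, and TGM3 was at 0. Without stiff replicate 2, 8 rose and 1 fell, in a fit where 5379 of 19053 genes rose and 5224 fell.

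Of 16 genes of the differentiating soft mucosa, 10 were tested, 4 rose, 2 fell and 4 did not pass. The shares over all genes tested were 25.3% higher and 23.8% lower. The median log2 fold change of the 10 was 0.34. EVPL, the desmosome-linked envoplakin, rose 1.56-fold and the ammonium transporter RHCG rose 1.43-fold. SCEL, the envelope protein sciellin, fell 2.73-fold and CLCA4 fell 2.15-fold. CRNN, which encodes cornulin of the oesophageal and oral surface, was at 0 in every library, and MAL, SPRR3 and CRCT1 were below the count filter. Without stiff replicate 2, 6 rose and 3 fell, but calls also grew over all genes, to 5379 higher and 5224 lower of 19053.

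Of 15 transcription factors and receptors known to act in keratinocyte differentiation, 8 rose, 5 fell and 2 did not pass. Among all genes tested, 25.3% rose and 23.8% fell. The median log2 fold change of the 15 was 0.22. MAF, which promotes epidermal differentiation, rose 5.13-fold to 66.5 CPM in stiff, against 12.98 CPM in soft. GRHL3, a grainyhead factor of the barrier, rose 3.90-fold. ELF3 and CEBPA fell 1.84-fold and 2.00-fold. KLF4 was at 57.8 CPM in stiff and 55.6 CPM in soft (adjusted p = 0.676), and ZNF750 was at 31.2 CPM in stiff and 30.9 CPM in soft (adjusted p = 0.908). Without stiff replicate 2, 8 rose and 5 fell, beside 5379 higher and 5224 lower of 19053 genes.

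**Figure D5:**
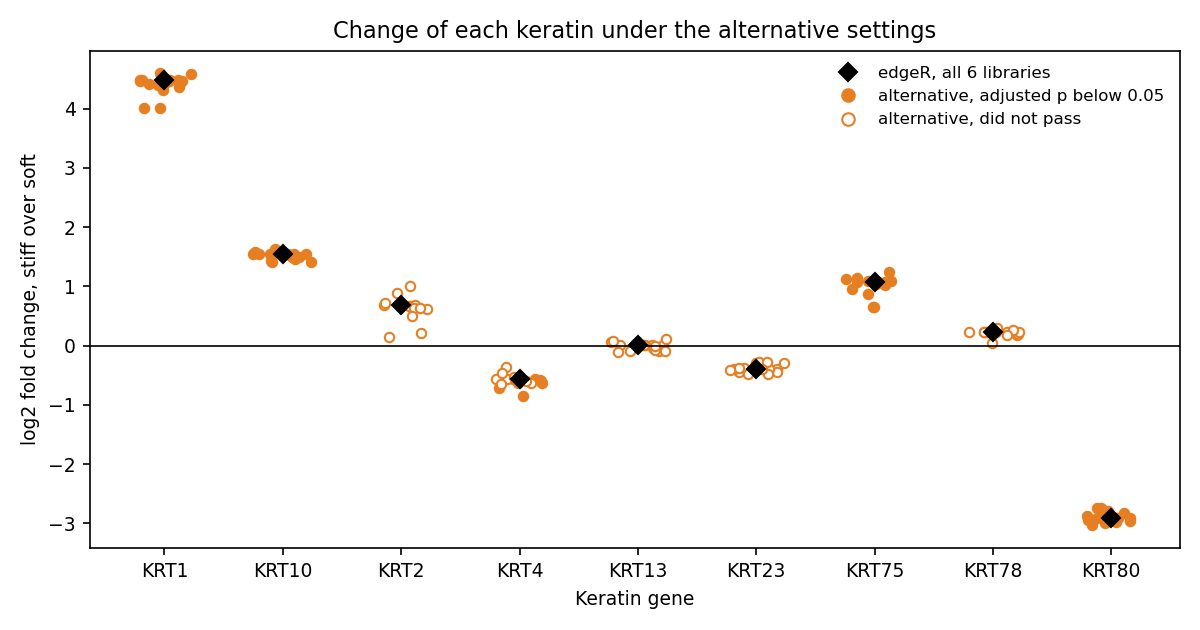
Log2 fold change of each keratin, stiff over soft, from edgeR on all 6 libraries (black diamonds) and under each alternative setting (circles, filled where adjusted p was below 0.05). KRT1, KRT10, KRT75 and KRT80 are filled throughout, KRT4 in 7 of 16, and KRT13 falls on both sides of 0.

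KRT1, KRT10 and KRT75 were called higher and KRT80 lower under each of 16 alternatives. The log2 fold change ranged from 4.02 to 4.60 for KRT1, 1.40 to 1.63 for KRT10, 0.65 to 1.25 for KRT75 and -3.03 to -2.74 for KRT80.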

How the data were processed

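RNA of 6 Cal27 spheroid libraries, 3 per condition, was sequenced as paired reads of 61 bp after selection of polyadenylated RNA, per the labels' protocols. The submitters' processing notes name featureCounts 1.6.2, STAR 2.6.1e, Trim Galore 0.4.2, cutadapt 1.9.1 and FastQC 0.11.7, and the hg38 build. Which annotation, strand setting and rule for multi-mapped reads applied is not given in the sources used here. Per the values, the deposited counts are whole numbers per gene symbol, not normalized. They are called fragments here, but whether read pairs or single reads were counted cannot be read from the values. The deposited TPM values were scaled by the authors and rounded to 1 decimal.

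Groups came from the sample titles. The labels call the libraries biological replicates without naming separate cultures or days, so p-values measure the spread between libraries. Counts were tested with edgeR 4.0.16 in R 4.3.3 (quasi-likelihood F test, TMM factors, default expression filter, Benjamini-Hochberg adjustment over 18676 genes, threshold 0.05). CPM are counts divided by library sizes scaled with the TMM factors. SEs are the log2 fold change divided by the root of F, and 95% intervals use the moderated degrees of freedom. Likeness used log2 CPM with a prior count of 2. Partner ratios were tested with an exact permutation test (scipy 1.17.1). The fit was tested on simulated counts with known changes. Far fewer genes changed in the simulation than the 49.1% called here, so it does not show how the fit behaves at that share.

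The keratins, the gene lists and the tests were chosen with earlier results of these data known. Outside the 9 keratins, genes were named by a rule: the 2 with the smallest p in each direction of each differentiation list, the 3 other keratins with the highest mean CPM and the 3 nearest genes of each keratin above 5 CPM. The neighbours of the 9 keratins, other keratins that fell and KRT6A were named after their values were seen. So were the markers singled out in the cell type lists and the list genes given without a call. Positions, exons and overlaps are from GENCODE release 29 on GRCh38, and Entrez numbers and promoters from RefSeq on GRCh38.p14. Alternatives were DESeq2 1.42.0, other scaling factors, other filters, limma 3.58.1 on log2(TPM + 1) and log2(TPM + 0.1), a robust fit, a block for replicate number and leaving out each library. Counts of list members without stiff replicate 2 were added after seeing the data.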

Additional observations from a re-analysis of the deposited data

How the results depend on the processing

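The calls of KRT1, KRT10, KRT75 and KRT80 held under all 16 alternatives, and KRT2, KRT23 and KRT78 passed in none of those that tested them. KRT4 was called lower, making 2 members lower rather than 1, with DESeq2 (log2 fold change -0.57), library-size scaling (-0.62), no count filter (-0.58), limma on log2(TPM + 1) (-0.63) and on log2(TPM + 0.1) (-0.71) with the filter on mean TPM, and the replicate block (-0.60, adjusted p = 0.0110); with a library left out it lay between -0.84 and -0.37, with 1 to 2 members lower. KRT13 changed sign with library-size scaling (-0.042) and with limma on log2(TPM + 1) (-0.098, also without the filter) and log2(TPM + 0.1) (-0.099), and lay between -0.094 and 0.12 with a library left out. In those 4 settings the median of all genes was -0.057, -0.094, -0.038 and -0.11; the cause was not tested. Over all genes, 4722 were higher, against 2880, 2831 and 3138 with limma on log2(TPM + 1), on log2(TPM + 0.1) and on log2(TPM + 1) without the filter, and 3746 to 5379 with a library left out. Library-size scaling moved the higher share of calls from 51.5% to 44.7% and limma on log2(TPM + 1) to 41.3%. The replicate numbers were not treated as pairs: same-numbered libraries deviated together at r = 0.073, 0.22 and 0.050 for numbers 1, 2 and 3. The replicate block gave 5167 higher and 5039 lower genes and, for partner ratios, the same differences with a sign-flip exact p of 0.25, the smallest 3 pairs allow. KRT2, KRT75 and KRT78, with at most 56 fragments in any library, are limited by depth.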

Other observations

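Several keratins of other epithelia were detected at low levels and rose in stiff Matrigel. KRT3, a keratin of the corneal surface, had 54, 66 and 21 fragments in the stiff libraries and 6, 2 and 9 in the soft libraries (8.15-fold, edgeR adjusted p = 0.00152). KRT84, a hair and tongue keratin, had 31, 31 and 23 fragments in stiff and 7, 4 and 4 in soft (5.61-fold, adjusted p = 0.000368). KRT72, of the hair root sheath, had 42, 52 and 13 fragments in stiff and 2, 4 and 8 in soft (7.43-fold, adjusted p = 0.00409). KRT9, the type I keratin of palm and sole skin, averaged 6.16 CPM in stiff and 2.46 CPM in soft (2.51-fold, adjusted p = 4.95e-05). In KRT3 and KRT72 stiff replicate 3 was the lowest of the stiff libraries. These genes were named after their values were seen.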
